A study of Mus musculus with 12 samples.

Results

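Neurod1, Neurod2, Neurod6, Tbr1, Bcl11a, Bcl11b, Prox1, Mef2c and Zbtb18 are transcription factors that set and hold the identity of excitatory neurons in the hippocampus and the cortex. These 9 genes were chosen by name from the 48709 genes counted in each of 12 libraries, and all 9 were expressed well above the filter on low counts, with between 540 and 22124 counts per library. RNA was sequenced from primary hippocampal cultures of the mouse that had been given a miR-148a-3p mimic, a synthetic RNA with the sequence of that microRNA, or a negative control RNA. There were 6 mimic and 6 control libraries, and the comparison asks which transcripts differ when the microRNA is raised in these cells.

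The cultures of both groups came from E17 embryos of the CD1 strain. Per the methods of the study, hippocampi of several embryos were pooled before plating, and every culture received lipid nanoparticles together with ApoE4 protein, so that both groups share the carrier and the protein and differ in the packaged RNA. Treatment began at DIV10, the tenth day in vitro, and lasted 48 h to DIV12. The labels do not say whether the 6 samples of a group were separate preparations or wells of 1 preparation, so all p-values measure the spread between these samples, which may be technical. The labels call the samples neurons, while such cultures also hold glia.

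Neurod1, Neurod2 and Neurod6 belong to the basic helix-loop-helix (bHLH) proteins, which bind DNA as dimers and drive the step from progenitor to neuron. Tbr1, a T-box factor, and the zinc finger factors Bcl11a and Bcl11b divide cortical projection neurons into layer classes, Prox1 specifies granule cells of the dentate gyrus, Mef2c couples activity to synapse number, and the repressor Zbtb18 is needed for the growth of hippocampus and cortex. MicroRNAs lower transcripts mainly by pairing of their seed, the bases near the 5′ end, with matching sites in the 3′ untranslated region (UTR).

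The packaged RNAs are shown first because their seeds decide which UTR stretches are described as sites. Both are written 5′ to 3′, with the seed, bases 2 to 8, in capitals. The mimic sequence of the study's reagent list equals the mature miR-148a-3p of RefSeq on GRCm38.p6, base for base over 22 bases. The control is the listed negative control for mimics; the series describes its control as a siRNA, so the values for its seed assume that the listed sequence was the one packaged.
miR-148a-3p mimic: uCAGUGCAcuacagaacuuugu
negative control: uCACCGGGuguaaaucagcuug

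Of the 9 members, 4 held a site for the mimic in their longest annotated 3′ UTR, namely Zbtb18, Prox1, Bcl11a and Bcl11b. Among all 15082 tested genes with a 3′ UTR the share with such a site was 21.9%, and it was 31.4% among the 9355 genes whose 3′ UTR was at least as long as the shortest of the members (815 bases, Neurod6). A site was a match on the transcript strand to bases 2 to 8 (TGCACTG), or a shorter match to bases 2 to 7 with an A after it (GCACTGA). A stretch with both is an 8-base site, which 1 member and 4.15% of all these genes held. The sites are printed with their neighbouring bases, in capitals where they pair with the seed or hold the final A, as letters of the transcript with mm10 coordinates.
Zbtb18 (chr1:177449590-177449611, plus strand): aagaacataaaTGCACTGtctt
Prox1 (chr1:190120902-190120924, minus strand): ctccacagcttTGCACTGAggtg
Bcl11a (chr11:24166850-24166871, plus strand): ggacaattaagTGCACTGtaca
Bcl11b (chr12:107914678-107914700, minus strand): ttggagagttaGCACTGAtgtcc

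The site of Zbtb18 begins at base 1703 of a 3′ UTR of 2866 bases, that of Prox1 at base 2307 of 5185, that of Bcl11a at base 1695 of 3263 and that of Bcl11b at base 711 of 4997. The 8-base site was the one in Prox1. Sites for the negative control (CCCGGTG, or CCGGTGA) are shown because the groups differ in both RNAs. They were found in 2 members, beside 4.42% of all genes with a 3′ UTR and 6.27% of the 9355 genes with one of at least 815 bases. Both of these members also hold a site for the mimic, and their 3′ UTRs are the longest of the members, beside a median of 1173 bases over all genes.
Prox1, negative control site (chr1:190120856-190120878, minus strand): atcaagcatctCCCGGTGAgata
Bcl11b, negative control site (chr12:107915318-107915340, minus strand): cgccaacgggaCCGGTGAccgga

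In Prox1 the 2 sites start 46 bases apart, and in Bcl11b they start 640 bases apart. The sites of the negative control were an 8-base match in Prox1, a kind found in 0.398% of genes, and the shorter match with a final A in Bcl11b. Neurod1, Neurod2, Neurod6, Tbr1 and Mef2c held no site for either RNA, in 3′ UTRs of 1443, 1770, 815, 1676 and 4449 bases. A match of letters is a description of the window and does not show that the RNA bound there.

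Library totals ranged from 20018234 to 37149112 counts, and control replicates 1 and 2 were the shallowest. The summed level of 18 pan-neuronal markers, a list without any member, was 12031 to 12617 CPM in control and 11282 to 11636 CPM in mimic, so the groups did not overlap. CPM are counts relative to the library total after TMM scaling, which sets libraries to a common level over all genes. Of these markers 8 were lower in mimic and 1 higher, with Tubb3, a tubulin of neurons, at a log2 fold change of -0.32 and Rbfox3, the NeuN antigen, picked out after its values were seen, at -0.0094 (edgeR adjusted p = 0.920). Astrocyte markers summed to 4948 to 5432 CPM in control and 5807 to 6263 CPM in mimic, with 7 of 10 higher and 1 lower. Slc1a3, a glutamate transporter, went from 913 to 1815 CPM, and the lower marker was Gfap, the astrocyte filament protein, from 1362 to 731 CPM (log2 fold change -0.90, adjusted p = 5.52e-07). Oligodendrocyte lineage markers went from 429 to 724 CPM up to 810 to 1003 CPM, with 5 of 10 higher and 1 lower. All 12 cell cycle markers were higher, at 251 to 294 CPM in control and 497 to 527 CPM in mimic. Microglia markers stayed at or under 34.1 CPM in sum, with 2 of 10 lower, and no listed marker in the files was at 0 in all libraries. In bulk RNA, fewer cells of a type and less RNA per cell cannot be told apart. Each member is therefore also given relative to the neuronal markers.

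Scaled to all genes, 4 of the 9 members were lower in mimic at an adjusted p under 0.05 (edgeR quasi-likelihood test, adjusted over all 18847 genes tested) and none was higher; at an unadjusted p under 0.05 there were 5 lower and 0 higher, and DESeq2 and limma each called 4 lower and 0 higher. The 4 were Tbr1, Neurod2, Zbtb18 and Bcl11a, and Tbr1 fell by 17.7%, Neurod2 fell by 16.8%, Zbtb18 fell by 9.90% and Bcl11a fell by 6.86%. In the same test 22.2% of all genes were called, 10.7% lower and 11.5% higher, and among the 8688 genes that averaged 500 counts or more, as all members did, 27.1% were called and 13.0% were lower. The median log2 fold change was -0.12 over the members and -0.012 over all genes. With libraries scaled instead to the summed counts of the pan-neuronal markers, Tbr1 was the only member lower and Prox1 the only member higher, where 31.3% of all genes were called, 4.79% lower and 26.5% higher.

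**Figure D1:**
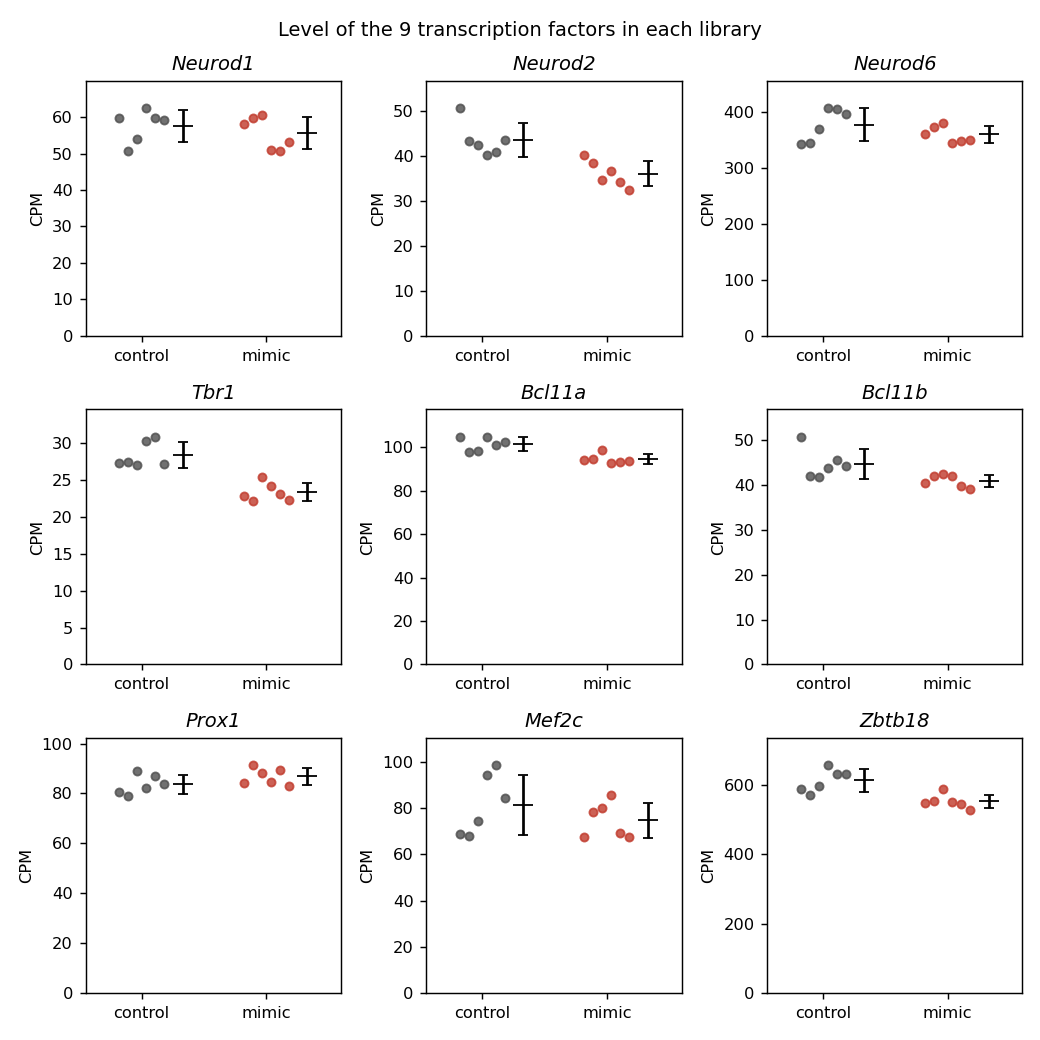
Level of each of the 9 members in CPM (y axes, from 0) in the 6 control (grey) and 6 mimic (red) libraries, with points in replicate order and the bar at the mean ± SD. The groups are apart for Tbr1 only, at 27.0 to 30.8 CPM in control and 22.1 to 25.4 CPM in mimic, and Mef2c has the widest spread.

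Per kb of exon the members covered a wide range of levels. In control, Neurod6 had 175.6 ± 13.7 CPM per kb (SD, n = 6), Zbtb18 99.9 ± 5.24 and Neurod1 21.1 ± 1.601, followed by Neurod2 with 13.8 ± 1.19, Prox1 with 9.97 ± 0.467 and Bcl11a with 7.70 ± 0.232. Bcl11b (5.51 ± 0.406), Mef2c (5.18 ± 0.836) and Tbr1 (5.17 ± 0.319) stood lowest, and neighbours among these 3 overlapped in their control libraries. In mimic the order of the means was the same. There, Neurod2 (11.5 ± 0.906) and Prox1 (10.3 ± 0.400 CPM per kb) overlapped as well, although Neurod2 was above Prox1 in each of the 6 libraries. The high place of Neurod6, and the presence of Prox1 and Bcl11b beside Tbr1, show that transcripts of pyramidal, granule and deep-layer type factors were all in the cultures, without saying in which cells.

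**Figure D2:**
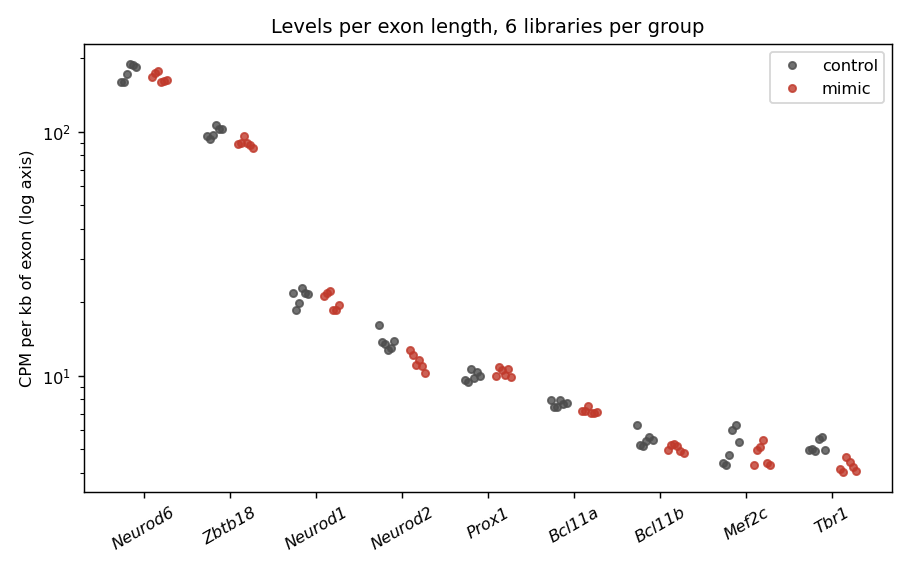
CPM per kb of exon (log axis) for each member in the control (grey) and mimic (red) libraries, members in order of the control mean. Neurod6 and Zbtb18 stand above the rest in every library, and Mef2c overlaps with Bcl11b and with Tbr1, the other low members.

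Among the bHLH members, Neurod2 differed between the groups, and Neurod1 and Neurod6 did not pass the test. Neurod2 (chr11:98325415-98329648, minus strand) promotes the maturation of excitatory neurons and their synapses. Its level was lowest at 40.1, median 42.9 and highest 50.6 CPM in control, and 32.4, 35.6 and 40.1 CPM in mimic. Of the 6 mimic libraries 5 lay below the lowest control, and the groups met only there, while control replicate 1 stood above all others. The log2 fold change was -0.27 (SE 0.060, 95% interval -0.39 to -0.14, adjusted p = 0.00339). Without control replicate 1 it was -0.22 (adjusted p = 0.00154).

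Neurod1 (chr2:79452521-79456751, minus strand), which acts early in granule cells and helps them survive, had a lowest level of 50.6, a median of 59.4 and a highest level of 62.4 CPM in control. In mimic these were 50.8, 55.6 and 60.5 CPM, so the groups covered nearly the same range. The log2 fold change was -0.053 (SE 0.058, 95% interval -0.17 to 0.069, adjusted p = 0.582). It moved to -0.084 without control replicate 2, to -0.029 without control replicate 4, to -0.028 without mimic replicate 4 and to -0.027 without mimic replicate 5. Its exons share 201 bases with those of Cerkl on the same strand, a gene with a mean of 61.8 counts beside 1690 for Neurod1, and 154 bases with the antisense gene Gm26755, which had 2.17.

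Neurod6 (chr6:55677822-55681263, minus strand) marks pyramidal neurons of the hippocampus and upper cortex, and was the most abundant member per length. Its levels were 342.8, 383.6 and 406.5 CPM in control and 345.0, 355.5 and 381.1 CPM in mimic (lowest, median, highest). Control replicates 1 and 2 were the lowest of their group, and the mimic libraries lay within the control range. The log2 fold change was -0.069 (SE 0.048, 95% interval -0.17 to 0.032, adjusted p = 0.350), and it was -0.13 (adjusted p = 0.00254) without control replicates 1 and 2.

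A call for Neurod2 and none for its relatives does not show that they differ, so the ratios of counts within a library were compared. Neurod1 had 1.33 ± 0.155 counts for each count of Neurod2 in control and 1.54 ± 0.133 in mimic (SD, n = 6 each). All 6 mimic libraries were above the control mean, and 3 were above the highest control. The difference in the mean log2 ratio was 0.22, with an exact permutation p = 0.0303 (two-sided, over all relabellings, smallest possible p 0.00216) and 0.121 after Benjamini-Hochberg adjustment over 4 ratios. Without control replicates 1 and 2 it was 0.13. Neurod2 over Neurod6 went from 0.116 ± 0.0183 to 0.100 ± 0.00779, a log2 difference of -0.20 with an adjusted exact permutation p = 0.130, and all 6 mimic libraries were below the control mean. Without control replicate 1 that difference was -0.13, and without control replicates 1 and 2 it was -0.081. Neurod1 over Neurod6 stood at 0.153 ± 0.0109 and 0.154 ± 0.00642 (adjusted exact permutation p = 0.831). None of the ratios passed after adjustment, so a difference in response among the 3 bHLH members was not detectable with these libraries.

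**Figure D3:**
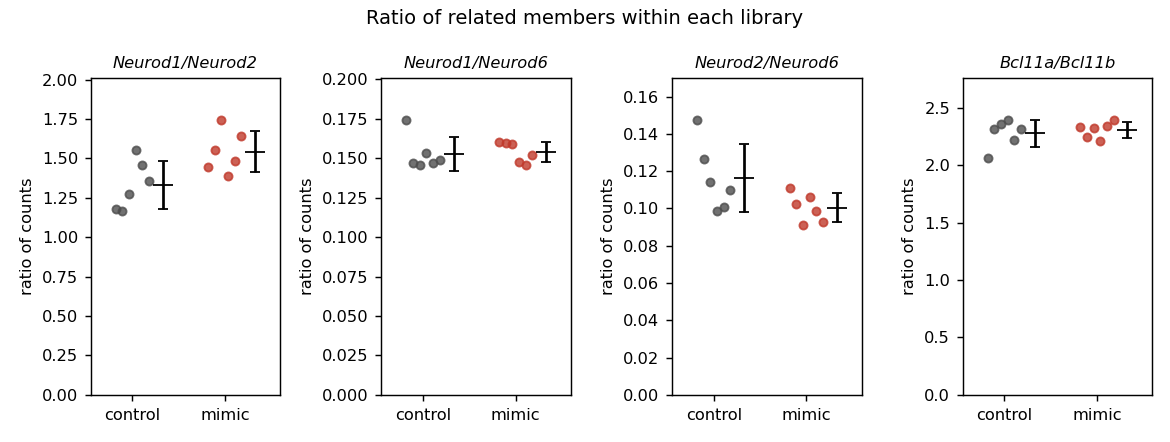
Ratio of the counts of related members within each library (y axes, from 0), for control (grey) and mimic (red), with the bar at the mean ± SD. Neurod1/Neurod2 averages 1.33 in control and 1.54 in mimic, Neurod2/Neurod6 0.116 and 0.100, and the groups overlap in all 4 panels.

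Tbr1 (chr2:61802930-61814114, plus strand) specifies deep-layer cortical neurons and early-born glutamatergic neurons. It had 27.0, 27.3 and 30.8 CPM in control and 22.1, 23.0 and 25.4 CPM in mimic (lowest, median, highest). Every mimic library lay below every control library, which made Tbr1 the only member whose groups did not overlap, where 13.3% of all genes tested did not overlap, with 5.83% lower and 7.43% higher in mimic. The means were 28.3 ± 1.75 and 23.3 ± 1.24 CPM (SD, n = 6), a log2 fold change of -0.28 (SE 0.049, 95% interval -0.39 to -0.18, adjusted p = 0.000414). Tbr1 also has the fewest reads of the 9, with 540 to 1008 counts per library. Its binding partner Cask and 3 of its known target genes in cortex (Reln, Grin2b and Auts2) did not pass the test in edgeR, with log2 fold changes between -0.083 and 0.010 and none at an unadjusted p under 0.05 or in DESeq2 or limma; scaled to the neuronal markers 1 of the 4 was higher.

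Bcl11a and Bcl11b, known also as Ctip1 and Ctip2, are paralogs that direct the projections of deep-layer and callosal neurons, and Bcl11b also acts in granule and CA1 cells. Bcl11a (chr11:24078056-24174123, plus strand) had 97.7, 101.7 and 104.8 CPM in control and 92.8, 93.9 and 98.7 CPM in mimic (lowest, median, highest). Only mimic replicate 3 reached into the control range, and the log2 fold change was -0.10 (SE 0.032, 95% interval -0.17 to -0.035, adjusted p = 0.0280). The call was lost when control replicate 4 or any of mimic replicates 1, 2, 4, 5 and 6 was left out, with adjusted p-values from 0.0532 to 0.0642. An antisense gene, 4930538E20Rik, shares 316 bases with its exons and had a mean of 7.67 counts.

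Bcl11b (chr12:107910403-108003602, minus strand) had 41.7, 44.0 and 50.8 CPM in control and 39.1, 41.2 and 42.4 CPM in mimic (lowest, median, highest). Control replicate 1 was the highest library, and 3 of the 6 mimic libraries lay below the lowest control. The log2 fold change of -0.12 (SE 0.046, 95% interval -0.22 to -0.026) missed the threshold with an adjusted p = 0.0670, and passed it without control replicate 3 at -0.14 (adjusted p = 0.0459). The ratio of Bcl11a to Bcl11b counts was 2.28 ± 0.119 in control and 2.31 ± 0.0672 in mimic (SD, n = 6; adjusted exact permutation p = 0.797). The pair thus gave no detectable difference in response, with both estimates below 0 and similar in size.

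Prox1 (chr1:190118035-190170714, minus strand) is the factor that makes and keeps dentate granule cells, and it is also made by some interneurons and by cells of the oligodendrocyte lineage. It was the only member with a higher mean in mimic. Levels were 78.9, 83.0 and 89.2 CPM in control and 83.0, 86.5 and 91.3 CPM in mimic (lowest, median, highest). The groups overlapped over most of their range, and the log2 fold change of 0.053 (SE 0.039, 95% interval -0.029 to 0.13, adjusted p = 0.380) did not pass the test. Its antisense gene Prox1os shares 133 exonic bases and had a mean of 57.8 counts beside 2555.

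Relative to the neuronal markers, Prox1 differed. For each 1000 counts of pan-neuronal markers there were 6.50, 6.68 and 7.14 counts of Prox1 in control (lowest, median, highest). In mimic these were 7.28, 7.52 and 7.91, so the groups did not overlap. The share of all genes whose groups separate on this scale was not counted, while 26.5% of all genes were called higher on it. On this scale the log2 fold change was 0.16 (SE 0.037, 95% interval 0.081 to 0.24, adjusted p = 0.00322), while the median of all genes moved up by 0.11. Against that median of 0.094, Prox1 was higher by 0.065. Of the oligodendrocyte lineage markers 5 of 10 rose between the same groups, or 7 of 10 on this scale, and their part in the level of Prox1 was not tested.

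Mef2c (chr13:83504034-83667080, plus strand) limits excitatory synapse number in response to activity and is also made by microglia and vascular cells. It had 67.9, 79.3 and 98.6 CPM in control and 67.4, 73.8 and 85.6 CPM in mimic (lowest, median, highest). It varied more within a group than any other member, by 16.2% in control and 10.3% in mimic (SD over mean), with control replicates 1 and 2 at the low end. The log2 fold change was -0.13 (SE 0.095, adjusted p = 0.404) with a 95% interval from -0.33 to 0.078, so a fall as large as that of Tbr1 lies inside it. Leaving out 1 library moved it to between -0.17 (without control replicate 2) and -0.063 (without control replicate 5), and without control replicate 4 it was -0.080. Without control replicates 1 and 2 together it was -0.23 (adjusted p = 0.124). Summed microglia markers were 23.4 to 27.0 CPM in control and 22.05 to 34.1 CPM in mimic. Summed mesenchymal and vascular markers were 201 to 269 CPM in control and 98.9 to 227 CPM in mimic, with 2 of 9 tested lower and a median log2 fold change of -0.26, and the part of either cell type in the level of Mef2c was not tested.

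Zbtb18 (chr1:177442351-177450764, plus strand), also called RP58, represses progenitor genes and the proneural factors once neurons form. It had 572.5, 613.9 and 657.3 CPM in control and 529.0, 550.1 and 589.0 CPM in mimic (lowest, median, highest). Only mimic replicate 3 lay inside the control range. The means were 613 ± 32.2 and 553 ± 19.8 CPM (SD, n = 6), a log2 fold change of -0.15 (SE 0.039, 95% interval -0.23 to -0.069, adjusted p = 0.00861). The antisense gene Gm26801 shares 54 exonic bases with it and had a mean of 25.7 counts beside 17434.

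Set beside the sites printed above, the log2 fold changes of the 4 members with a mimic site were -0.15 (Zbtb18), -0.12 (Bcl11b), -0.10 (Bcl11a) and 0.053 (Prox1). Those of the 5 without a site ran from -0.28 (Tbr1) and -0.27 (Neurod2) to -0.053 (Neurod1). The 2 largest falls were in members with no match to the seed in the UTR searched. Prox1, with the only 8-base match to the mimic, had a mean above that of control. Prox1 also holds an 8-base site for the negative control, and Bcl11b holds a shorter one. In these 2 members each group received an RNA with a matching site, so their fold changes cannot be read for the mimic site alone. With 4 and 5 genes this is a description of the members and no test of the sites.

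**Figure D4:**
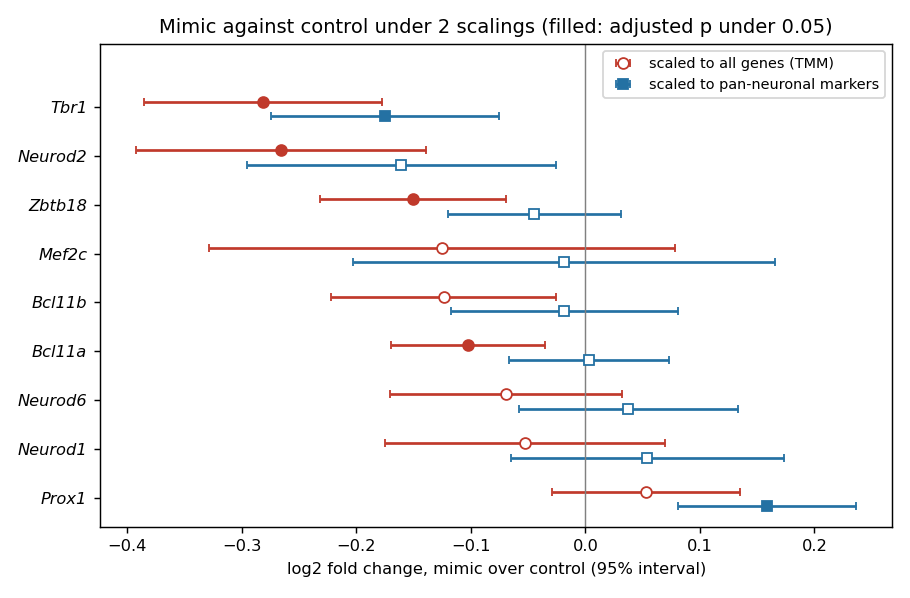
Log2 fold change of mimic over control with its 95% interval (x axis) for each member, with libraries scaled to all genes (circles, red) or to the pan-neuronal markers (squares, blue), filled where the adjusted p is under 0.05. Tbr1 is lower on both scales, Neurod2, Zbtb18 and Bcl11a only on the first, and Prox1 is higher only on the second.

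Relative to the pan-neuronal markers, Tbr1 was lower with a log2 fold change of -0.18 (SE 0.047, adjusted p = 0.00872), and Neurod2 was at -0.16 with an adjusted p = 0.0655. Zbtb18 (-0.044, adjusted p = 0.386) and Bcl11a (0.0031, adjusted p = 0.959) did not pass the test. The median of the members was -0.018, below the all-gene median of 0.094 on that scale. Relative to that median Tbr1 stood at -0.27 and Neurod2 at -0.25. When each marker was given the same weight, a scaling added after these values were seen, Neurod2 was called at -0.17 (adjusted p = 0.0348), with a range of its adjusted p from 0.000333 to 0.0655 over all settings.

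Other genes of the same programmes were read from fixed lists. Of 42 other factors of the glutamatergic lineage 40 were tested, with 9 higher and 6 lower and a median log2 fold change of 0.023; scaled to the neuronal markers 17 were higher and 3 lower. Emx1, a factor of the dorsal telencephalon, fell from 22.3 ± 2.83 to 16.5 ± 0.675 CPM (SD, n = 6; log2 fold change -0.42, adjusted p = 0.000235), with no overlap between the groups. Lhx9, a LIM homeodomain factor, was lower (-0.37, adjusted p = 0.00180). Rorb, a nuclear receptor of layer 4 neurons, was higher (0.45, adjusted p = 0.000196), and so was Sox4, which acts in young neurons (0.35, adjusted p = 0.0178). Bhlhe22, a bHLH factor of the same neurons that was picked out after its values were seen, was lower at -0.26 (adjusted p = 0.00109). Factors of the GABAergic lineage split similarly, with 4 of 18 tested higher and 2 lower, and with 7 higher and none lower when scaled to the neuronal markers. Sp8 was higher at 0.23 (adjusted p = 0.0264) and Dlx2 lower at -0.23 (adjusted p = 0.0272; 0.239 when scaled to the markers).

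The bHLH members pair with E proteins and are opposed by Id and Hes proteins. Of 12 such partners and inhibitors 4 were higher and 3 lower, or 6 and 1 when scaled to the neuronal markers. The Notch effectors Hes1 (0.51, adjusted p = 4.95e-05) and Hes5 (0.39, adjusted p = 0.00444) were higher, at low levels of 10.04 and 4.43 CPM in mimic, while Id3 (-0.41, adjusted p = 0.00193) and Hey2 (-0.38, adjusted p = 0.0189; 0.0571 when scaled to the markers) were lower. Tcf12, an E protein picked out after its values were seen, was higher at 0.22 (adjusted p = 9.60e-05). The list thus did not move one way. Of the progenitor markers 5 of 10 were higher and 1 lower, with a summed level of 2084 to 2256 CPM in control and 2035 to 2213 CPM in mimic, and the part of progenitors and astrocytes in the levels of Hes1 and Hes5 was not tested.

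Of the relatives and partners of Mef2c, the MEF2 family and class IIa histone deacetylases, 6 of 7 were tested and none passed at an adjusted p under 0.05 in edgeR, with log2 fold changes from -0.015 to 0.091, none at an unadjusted p under 0.05 and none in DESeq2 or limma. Scaled to the neuronal markers 1 of them was higher. Bcl11a and Bcl11b are subunits of the BAF chromatin remodelling complex in neurons, and 25 other subunits were tested. There, 8 were higher and 3 lower, with a median of 0.038; scaled to the neuronal markers 13 were higher and none lower, and DESeq2 called 9 higher and 6 lower. Smarcc1 (0.29, adjusted p = 1.36e-06) and Actl6a (0.29, adjusted p = 0.000645) had the largest rises among the called subunits, and Actl6b (-0.21, adjusted p = 0.00364) and Ss18l1 (-0.17, adjusted p = 0.00254) the largest falls.

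Actl6a and Ss18 are subunits of the complex of progenitors, and Actl6b and Ss18l1 take their places in neurons. Ss18, which like Phf10, Dpf1, Dpf2 and Dpf3 was picked out after the values were seen, was higher at 0.22 (adjusted p = 0.00628). A further exchanged position did not follow one direction. The progenitor subunits Phf10 (0.038, adjusted p = 0.617) and Dpf2 (0.11, adjusted p = 0.122) and the neuronal Dpf1 (-0.12, adjusted p = 0.0577) missed the threshold, and the neuronal Dpf3 was higher (0.18, adjusted p = 0.0137). Scaled to the neuronal markers, Actl6b (adjusted p = 0.133) and Ss18l1 (adjusted p = 0.236) no longer passed, while Phf10 (0.14, adjusted p = 0.0182) and Dpf2 (0.22, adjusted p = 0.00540) were called higher.

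Markers of the cell types in which the members act gave small counts in both directions. Of 12 dentate granule cell markers 2 were higher and 1 lower (4 and 1 when scaled to the neuronal markers), with Calb1, a calcium buffer of granule cells and interneurons, at 0.24 (adjusted p = 0.00918) and Glis3 at -0.32 (adjusted p = 0.00745). Of 14 tested CA1 and CA3 pyramidal cell markers 3 were higher and 2 lower (6 and 1 when scaled). Wfs1, an endoplasmic reticulum protein that marks CA1, fell from 77.0 ± 4.98 to 53.6 ± 4.58 CPM (-0.52, adjusted p = 2.63e-06), and Grik4, a kainate receptor subunit of CA3, was lower at -0.17 (adjusted p = 0.0184; 0.381 when scaled). Amigo2 (0.20, adjusted p = 0.00140) and Bok (0.45, adjusted p = 0.00123) were higher. Of 13 tested interneuron markers 1 was higher, the GABA-synthesising enzyme Gad2 (0.14, adjusted p = 0.0129), and 3 were lower, with Calb2 at -0.25 (adjusted p = 0.0155; 0.156 when scaled). Neither the granule cell list nor the pyramidal cell list moved as a block, in these counts.

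**Figure D5:**
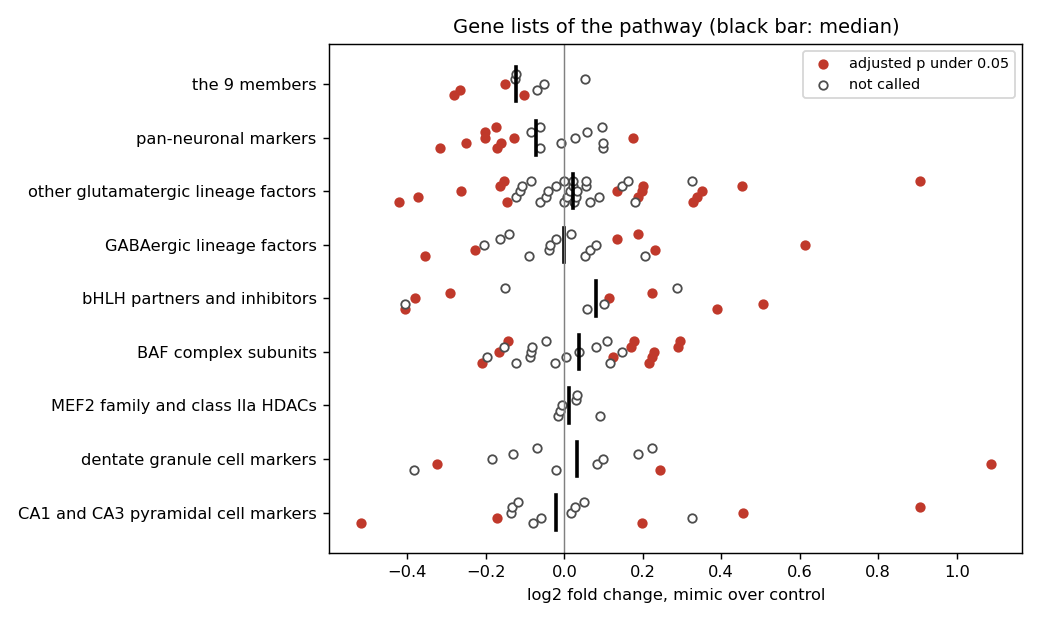
Log2 fold change of mimic over control (x axis) of each tested gene of the members and of 8 fixed lists, filled red where the adjusted p is under 0.05, with the black bar at the median of each row. The members have their median at -0.12 and the pan-neuronal markers at -0.073, the other lists shown have theirs between -0.021 and 0.080, and the interneuron markers, not shown, have theirs at -0.11.

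For 7 of the members the gene with the most similar level over the 12 libraries was looked up among 12362 genes, after the group means had been subtracted so that the mimic effect did not enter. The highest Pearson correlations were 0.99 for Neurod6 with Eny2, 0.95 for Mef2c with Fam91a1, 0.93 each for Neurod1 with Igip, Neurod2 with Gatd1 and Tbr1 with Dus4l, 0.91 for Bcl11b with Pou3f3 and 0.88 for Bcl11a with Dcaf12l1. Each is the best of many candidates over few libraries, so these values describe the libraries only.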

How the data were processed

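The authors aligned 50 bp single-end reads of poly(A) libraries (TruSeq) to mm10 with STAR 2.5.2b and counted reads per gene with featureCounts (Subread 1.5.1), per the labels; the deposited count files, whole numbers for 48709 genes, were used as they are. Quality was checked with FastQC 0.11.5. Whether counting used strand is not given in the sources used here, and the kit does not mark strand, so reads of overlapping genes cannot be told apart. A deposited table of normalized signal per gene holds 18289 of these genes as counts divided by 1 factor per library (0.673 to 1.26) and served 1 alternative only.

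Symbols, exons and 3′ UTRs came from GENCODE M21 on GRCm38, the build of mm10, which named 48349 genes. A gene entered the test with 5 counts or more in 6 libraries or more (18847 genes); edgeR 4.0.16 in R 4.3.3 gave a quasi-likelihood F-test with TMM scaling, no covariate, and Benjamini-Hochberg adjustment with a threshold of 0.05. Unless another setting is named, p-values of single genes are from this fit. The SE is the log2 fold change over the square root of F. Ratios of members were tested by exact permutation. Alternatives were DESeq2 1.42.0 (the tool of the study), limma 3.58.1 on log2 of the normalized signal plus 1, other scalings and filters, a replicate block, and omission of libraries.

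The members and all gene lists were chosen with earlier results of these data known. Named genes were the 9 members and, from each list, up to 2 genes with the largest increase and up to 2 with the largest decrease among those called that averaged 100 counts or more; the text says which others were picked out. The gene most alike to each member over the libraries was named by the same rule, and 3 genes under the rule are not reported here. Of progenitor markers 5 of 10 were higher and 1 lower, of mesenchymal and vascular markers 2 of 9 tested were lower, and of 8 ependymal markers 5 were lower. Promoters were not used. Libraries held 20018234 to 37149112 counts. Over the 15269 genes with 10 counts or more in every library, counts between replicates varied 1.66 to 35.0 times as much as counting alone gives. Control replicate 1 against control replicates 4, 5 and 6 gave 35.0, 34.0 and 29.8, the largest values. Control replicate 2 against the same libraries gave 18.7, 18.2 and 16.0, and no pair of mimic libraries was above 8.41.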

Additional observations from a re-analysis of the deposited data

Results flagged for a closer look

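Each of 28 sets of 6 values (levels of the 9 members, ratios of related members and summed neuronal markers, by group) was searched for a library whose gap to its neighbour took up more of the range than Dixon's 95% limit, and 3 such gaps were found where chance gives about 1 in 20, here 1.4. Neurod2 in control replicate 1 was at 50.6 CPM, with the other 5 control libraries between 40.1 and 43.6 CPM. Bcl11a in mimic replicate 3 was at 98.7 CPM, with the others between 92.8 and 94.5 CPM, and without that library its log2 fold change was -0.11 (edgeR adjusted p = 0.0225). The log2 ratio of Neurod1 to Neurod6 counts in control replicate 1 was -2.52, with the other controls between -2.78 and -2.70.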

How the results depend on the processing

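Tbr1, Neurod2 and Zbtb18 stayed below 0 and past the threshold in all 19 settings other than the 2 marker scalings, with log2 fold changes of -0.30 to -0.26, -0.30 to -0.21 and -0.19 to -0.13. Scaled to the summed pan-neuronal markers, 5003 genes were higher and 903 lower, 2 members were called (1 higher, 1 lower) and listed genes called went from 58 to 94 higher and from 39 to 20 lower. Neurod1 turned to 0.054, Neurod6 to 0.037 and Bcl11a to 0.0031, Neurod2 (-0.16) and Zbtb18 (-0.044) missed the threshold, and Prox1 (0.16) passed it. With equal weight for each marker, 4431 genes were higher and 937 lower, 1 member was higher and 2 lower, 21 listed genes were lower, Neurod1 (0.044) and Neurod6 (0.026) turned, Bcl11a (-0.0061) and Zbtb18 (-0.055) missed the threshold and Prox1 (0.15) passed it; that scaling was chosen after seeing the data. Without the filter on low counts Bcl11a missed the threshold (-0.10, adjusted p = 0.124). Over its alternatives its edgeR, DESeq2 and limma adjusted p ran from 0.00537 to 0.959.

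Leaving out 1 library at a time gave 3 to 5 members called, -0.11 to -0.093 for Bcl11a, -0.14 to -0.086 for Bcl11b and -0.0066 to 0.036 for the log2 difference of Bcl11a/Bcl11b, which turned without control replicate 1. Without control replicates 1 and 2 together, Neurod6 (-0.13) and Bcl11b (-0.097) passed the threshold and Bcl11a/Bcl11b turned (-0.0064). With 8-base sites only, 1 member held a site for the mimic and 1 for the negative control. The causes were not tested.

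Equal replicate numbers did not pair the libraries: correlations of same-numbered libraries ran from -0.22 to 0.32, and 1 of 12 correlated best with its own number. With the replicate block 1950 genes were higher and 1709 lower, and Bcl11a was at -0.10 with an adjusted p = 0.0898.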
